A study of Mus musculus with 4 samples.

Results

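The loci of 8 transcription factors tied to the pluripotent state of mouse embryonic stem cells were examined for 5-hydroxymethylcytosine (5hmC): Pou5f1, Nanog, Sox2, Klf4, Zfp42, Prdm14, Tbx3 and Esrrb. They were chosen by name, as genes of the core pluripotency network. Each locus was the gene's span on genome build mm9 with 20 kb added on each side, and all 8 were measured in all 4 libraries. Together the windows cover 541 kb and 108 of the 527794 tiles of 5 kb on chromosomes 1 to 19 and X. Esrrb, with the longest span, makes up 37.2% of that length.

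DNA came from mouse 46C embryonic stem cells (ESC), a 129/Ola line whose Sox1 gene reports through GFP, grown in 10% fetal bovine serum with 1000 U/ml leukemia inhibitory factor, and from neural progenitor cells (NPC) made from that line. The NPC were rosette-like Sox1-GFP-positive cells taken on day 9 of monolayer differentiation in N2B27 medium, and no siRNA or shRNA was used in any sample. Barcoded ESC and NPC DNA was mixed in a single tube, denatured and precipitated with a 5hmC antibody (hMeDIP-seq), so both cell types met the same antibody reaction. Each cell type has 1 5hmC library and 1 input library, all from 1 cell line, and DNA alone was measured, so the labelled cell types could not be checked by expression of marker genes.

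5hmC is made from 5-methylcytosine by TET enzymes, which act mostly at cytosines followed by guanine (CpG), and it marks gene bodies, enhancers and the edges of CpG islands in stem cells. Pou5f1 (Oct4), Sox2 and Nanog occupy each other's regulatory regions and form the centre of the network, to which Esrrb, Klf4, Tbx3, Prdm14 and Zfp42 (Rex1) are attached. Most of these genes are silenced when stem cells enter the neural lineage. Sox2 is the exception, since neural progenitors keep expressing it.

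The starts of these genes differ in CpG content, and the sequences of 4 starts are shown to make that difference visible. Each runs from 250 bases before to 50 bases into the RefSeq transcript on build GRCm38.p6, 5′ to 3′ on the gene's own strand, with every CG in capitals. Positions on that build were not mixed with the mm9 read positions.
Sox2: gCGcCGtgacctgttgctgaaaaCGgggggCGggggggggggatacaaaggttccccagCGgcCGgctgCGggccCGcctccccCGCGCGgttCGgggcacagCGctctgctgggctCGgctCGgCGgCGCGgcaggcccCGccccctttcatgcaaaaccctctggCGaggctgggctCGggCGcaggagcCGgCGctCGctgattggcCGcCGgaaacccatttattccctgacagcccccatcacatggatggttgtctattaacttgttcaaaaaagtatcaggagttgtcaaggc
Pou5f1: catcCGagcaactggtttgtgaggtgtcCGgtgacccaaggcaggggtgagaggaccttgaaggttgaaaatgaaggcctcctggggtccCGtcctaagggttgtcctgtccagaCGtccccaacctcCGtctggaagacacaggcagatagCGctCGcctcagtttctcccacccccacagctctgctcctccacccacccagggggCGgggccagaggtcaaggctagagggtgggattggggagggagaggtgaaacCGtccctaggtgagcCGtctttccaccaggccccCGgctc
Nanog: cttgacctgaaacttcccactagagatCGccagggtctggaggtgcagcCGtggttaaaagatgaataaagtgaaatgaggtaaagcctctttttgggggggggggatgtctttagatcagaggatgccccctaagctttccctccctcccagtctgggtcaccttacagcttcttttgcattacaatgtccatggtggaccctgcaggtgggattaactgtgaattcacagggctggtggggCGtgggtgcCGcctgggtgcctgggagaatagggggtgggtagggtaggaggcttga
Esrrb: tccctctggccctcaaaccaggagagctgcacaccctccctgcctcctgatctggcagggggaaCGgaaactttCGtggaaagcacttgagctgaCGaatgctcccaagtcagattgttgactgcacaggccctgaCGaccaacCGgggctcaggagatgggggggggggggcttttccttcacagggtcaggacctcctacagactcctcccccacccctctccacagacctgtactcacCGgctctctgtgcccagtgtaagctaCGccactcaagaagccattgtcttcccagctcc
The Sox2 window (chr3:34649745-34650044) holds 27 CG dinucleotides, more than 84.5% of the 32851 promoter windows in the table. The Pou5f1 window (chr17:35505782-35506081) holds 11, the Nanog window (chr6:122707239-122707538) 4 and the first Esrrb window (chr12:86360867-86361166) 7, which is also the median of all promoters. A promoter was matched for 6 of the 8 genes. Of those not printed, Klf4 had the highest count with 40 and Zfp42 had 11.

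The first comparison asked how much 5hmC each locus carried in ESC and in NPC. The measure is the number of distinct 5hmC reads per distinct input read. Its absolute size depends on how deeply the libraries were sequenced, so each level is set against the same measure over the whole genome. The 5hmC libraries held 7123491 distinct reads in ESC and 1742680 in NPC on chromosomes 1 to 19 and X, and the inputs 5059243 and 6588254, which gives a genome-wide level of 1.41 in ESC, 0.265 in NPC and an NPC/ESC ratio of 0.188. With 1 library per group there is no replicate error and no p-value. The 95% intervals in parentheses are exact and cover counting error only, since PCR copies are not independent molecules.

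In ESC, 7 of the 8 loci lay above the genome-wide level with an interval that excluded it, and Zfp42 was the exception. In NPC, 4 loci did so, namely Sox2, Tbx3, Esrrb and Nanog, of which Nanog was no longer distinguishable from the genome without 1 kilobase before its start. All 8 loci had fewer 5hmC reads per input read in NPC, and so did the genome as a whole. Because library sizes enter this ratio, a value below 1 does not by itself show a loss of 5hmC. Against the genome-wide ratio, Pou5f1, Prdm14 and Esrrb were lower in NPC, Sox2 was higher, and the intervals of the other 4 included it. Over windows of 50 kb the median ratio was 0.270. A lower ratio was found in 1.05% of windows for Pou5f1, 11.2% for Prdm14, 17.0% for Esrrb and 65.9% for Sox2. Summed over the 8 loci, 3840 5hmC reads over 1558 input reads in ESC were 1.75 times the genome-wide level (1.65 to 1.86). In NPC, 661 over 1807 reads were 1.38 times that level (1.26 to 1.51). Their summed NPC/ESC ratio came to 0.148 (0.133 to 0.165), 0.790 of that in the rest of the genome (0.710 to 0.879), and the median over loci was 0.143. Leaving out each locus in turn put the summed ratio between 0.720 of that elsewhere (without Sox2) and 0.861 (without Esrrb, 0.746 to 0.995). Esrrb supplied 1839 of the 3840 ESC 5hmC reads. As an estimate of background, 0.142 reads per input read was then subtracted from both cell types. It is the NPC level in the 47681 tiles of 5 kb lowest in ESC. Their ESC level was 0.0386, so 0.142 need not be the background in ESC. The summed ratio became 0.0965 where the genome gave 0.0971, and the difference was not seen under that subtraction.

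**Figure D1:**
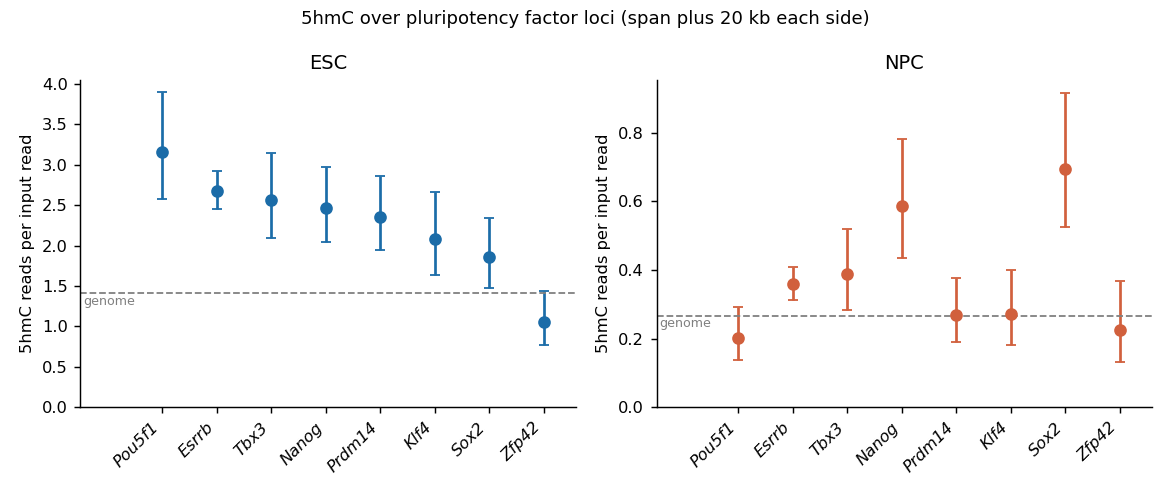
5hmC reads per input read (vertical axis, linear from 0) over each locus in ESC (left) and NPC (right), loci in the order of their ESC level. Points are single libraries, bars 95% counting intervals and the dashed line the genome-wide level, 1.41 in ESC and 0.265 in NPC. Pou5f1 is highest in ESC and lowest in NPC, and Sox2 is highest in NPC.

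Pou5f1 encodes the POU-domain factor Oct4, without which a pluripotent inner cell mass does not form. Its locus on chromosome 17 gave 395 5hmC and 125 input reads in ESC, and 35 and 173 in NPC. The ESC level was 3.16 (2.58 to 3.90), the highest of the 8 over both strands, and the NPC level 0.202 (0.136 to 0.292), the lowest of the 8. Pou5f1 5hmC reads per input read were thus 15.6-fold lower in NPC (10.2 to 24.3), where the genome was 5.32-fold lower. The NPC/ESC ratio was 0.0640 (0.0411 to 0.0985). Only 1.05% of the 49601 windows of 50 kb with enough input had a lower ratio. Relative to the genome the ESC level was 2.24 (1.83 to 2.77) and the NPC level 0.765 (0.516 to 1.10), so the locus stood above the genome in ESC and was not distinguishable from it in NPC. The ESC level was 1.63 times the genome with plus strand reads alone, below Esrrb, Prdm14, Nanog and Tbx3, and 3.10 times with minus strand reads alone.

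This 5hmC did not lie on the gene. The Pou5f1 span held 4 5hmC reads over 18 input reads in ESC, 0.158 of the genome-wide level (0.0389 to 0.479), and 4 over 24 in NPC. The 20 kb downstream held 335 over 62 reads in ESC and 20 over 88 in NPC. In ESC the downstream flank was 4.34-fold higher than the upstream flank (2.61 to 7.17), which had 56 over 45 reads. In NPC both flanks were low, with 11 over 61 reads upstream, and they differed 1.26-fold (0.530 to 3.13). The genes next to Pou5f1 on that side, by their order in GRCm38.p6, are Tcf19 and Cchcr1, both protein-coding and both reaching into the flank.

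The downstream signal was a stretch of 3 adjacent tiles, chr17:35655001-35670000, each enriched at least 2-fold over input in ESC. It held 317 5hmC and 52 input reads in ESC and 12 and 52 in NPC, an NPC/ESC ratio of 0.0379 (0.0174 to 0.0786). This stretch ends at the last tile of the locus, which passes the window's end at 35667800, so its full length was not measured. Its middle tile (chr17:35660001-35665000, 127 over 15 reads in ESC) was 6.01-fold above the genome-wide ESC level (3.51 to 11.1), and 99.7% of kept tiles had a lower ESC enrichment. The same tile had 5 over 12 reads in NPC. With flanks of 10 kb in place of 20 kb most of the stretch falls outside the window, and the ESC level of the locus was then 0.954 of the genome-wide level and its NPC/ESC ratio 0.140.

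Sox2 encodes the HMG-box partner of Oct4 and stays on in neural progenitors. Its locus on chromosome 3 gave 215 5hmC and 116 input reads in ESC, and 91 and 131 in NPC. The ESC level of 1.85 (1.47 to 2.34) was 1.32 times that of the genome (1.05 to 1.66). The NPC level of 0.695 (0.526 to 0.915), the highest of the 8, was 2.63 times that of the genome (1.99 to 3.46), and 99.6% of 50 kb windows lay below it. Sox2 was thus 2.67-fold lower in NPC (1.85 to 3.85), where the genome was 5.32-fold lower. Its ratio of 0.375 (0.260 to 0.540) was 2.0 times the ratio elsewhere (1.38 to 2.87). Of the 50 kb windows, 65.9% had a lower ratio, and the median window was at 0.270, so this ratio was not extreme among windows.

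The gene itself, a single exon, added nothing to this. The Sox2 span had 0 5hmC reads over 5 input reads in both ESC and NPC, which allows a level up to 1.09, so at this depth no 5hmC was detectable there. In the 2 kb around the start of this gene, which has the CpG-rich promoter printed above, 1 5hmC read lay over 10 input reads in ESC and 0 over 5 in NPC. The flanks carried the locus. Upstream there were 114 over 61 reads in ESC and 50 over 62 in NPC, and downstream 101 over 50 and 41 over 64. Relative to the genome the NPC level was 3.05 upstream (2.06 to 4.50) and 2.42 downstream (1.60 to 3.64), so both sides shared it. In GRCm38.p6 no other protein-coding gene reaches within 20 kb of Sox2, which lies inside the noncoding gene Sox2ot.

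Of the 8 Sox2 tiles, 4 were enriched in NPC and 2 of these in ESC too. The tile chr3:34535001-34540000, about 11 kb before the start, had 25 5hmC reads in each cell type, over 12 input reads in ESC and 16 in NPC. Over the ESC genome that was 1.48-fold (0.716 to 3.23), and over the NPC genome 5.91-fold (3.03 to 11.8). A second tile, chr3:34560001-34565000 about 14 kb after the start, had 27 over 16 reads in ESC and 20 over 14 in NPC, or 1.20-fold (0.623 to 2.38) and 5.40-fold (2.59 to 11.6). These tiles had the 2 highest NPC/ESC ratios among the enriched tiles of all 8 loci, 0.750 and 0.847 before the pseudocount. With flanks of 50 kb the ratio of the Sox2 locus was 0.246.

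Nanog encodes the homeodomain factor that resists differentiation of stem cells. Its locus on chromosome 6 gave 394 5hmC and 160 input reads in ESC, and 76 and 130 in NPC. The ESC level was 2.46 (2.04 to 2.98), 1.75 times the genome (1.45 to 2.12). The NPC level was 0.585 (0.435 to 0.782), 2.21 times the genome (1.64 to 2.96). Nanog had a ratio of 0.237 (0.167 to 0.337).

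A large share of the Nanog 5hmC in NPC lay in a single kilobase. The bin 1 to 2 kb before the start, chr6:122655500-122656499, held 34 of the 76 NPC 5hmC reads, or 44.7%, over 3 input reads, and 63 ESC reads over 4. Of these reads 33 in NPC and 60 in ESC lay on the minus strand. Without that bin the NPC level at Nanog was 1.25 times the genome (0.860 to 1.78) and the ratio 0.156 (0.102 to 0.236), and the upstream flank in NPC was 1.34 times the genome (0.709 to 2.42) in place of 3.94 (2.60 to 5.98). This bin was placed after seeing the reads. On a fixed grid of 1 kb bins, where the same pile is divided between neighbouring bins, leaving out the strand-biased bins kept Nanog at 1.47 times the genome in NPC (1.03 to 2.06), with a ratio of 0.186, and the tile at the start at 5.04 (2.45 to 10.6). Among 1 kb bins with 20 or more NPC 5hmC reads, 55.9% of 1061 in the genome had over 75% of them on a single strand, and in ESC 13.7% of 56389 did. At 95% or more on a single strand, the shares were 11.5% in NPC and 0.672% in ESC. What part strand-biased reads play in the bin was not tested.

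The Nanog inputs were also uneven. Scaled to the genome, the NPC input was 0.624 of the ESC input (0.495 to 0.786), and 0.200% of 50 kb windows had a lower value. With the 2 inputs summed, the ratio was 0.148 instead of 0.237. As at Pou5f1, the longest ESC-enriched stretch, chr6:122675001-122685000, lay 3′ of the gene toward Slc2a3, a glucose transporter gene that reaches into the flank in GRCm38.p6. It held 166 5hmC and 31 input reads in ESC and 9 and 33 in NPC, a ratio of 0.0509 (0.0198 to 0.124). This stretch too ends at the last tile of its locus, so its full length was not measured.

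Esrrb encodes an orphan nuclear receptor that sustains self-renewal. Its locus on chromosome 12 gave 1839 5hmC and 688 input reads in ESC and 297 and 829 in NPC, the deepest counts of the set. The ESC level was 2.67 (2.45 to 2.92), 1.90 times the genome, and the NPC level 0.358 (0.313 to 0.410), 1.35 times the genome (1.18 to 1.55). The ratio came to 0.134 (0.114 to 0.158), below that elsewhere by a factor of 0.713 (0.606 to 0.839).

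The 161 kb span was not uniform. Cut into 5 segments of 32.2 kb from the start, the ESC level relative to the genome was 1.89 in the first, 1.69 in the second, 3.37 in the third, 0.864 in the fourth and 2.45 in the fifth. The NPC level was 3.36 in the first segment (2.55 to 4.42), where 103 5hmC reads lay over 116 input reads, and between 0.740 and 1.10 in the rest. In NPC the first segment was 3.59-fold above the remaining span (2.56 to 5.03), while in ESC the factor was 0.965 (0.758 to 1.23). As a result the ratio was 0.334 in the first segment (0.235 to 0.476) and 0.0899 over the rest (0.0720 to 0.112). The lowest ratio was in the third segment, at 0.0439 (0.0261 to 0.0727), with 398 over 84 reads in ESC and 26 over 125 in NPC.

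The 2 kb around the Esrrb start held 55 5hmC over 5 input reads in ESC and 23 over 3 in NPC. That start is the outer end of the span. Esrrb has a second promoter on GRCm38.p6, chr12:86421394-86421693, and no start window was placed there. In the first kilobase of the span 81.0% of 42 ESC reads and 73.7% of 19 NPC reads lay on the plus strand. The first segment did not rest on that kilobase: without it the NPC level was 84 over 115 reads, 2.76 times the genome (2.06 to 3.69), and over the whole segment 44.7% of NPC reads were on the plus strand. In the middle, a run of 6 enriched tiles, chr12:87770001-87800000, had 383 over 80 reads in ESC and 24 over 125 in NPC, a ratio of 0.0401 (0.0234 to 0.0675). The highest ESC tile lay at the 3′ end of the gene (chr12:87860001-87865000), with 131 over 16 reads in ESC and 6 over 23 in NPC.

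**Figure D2:**
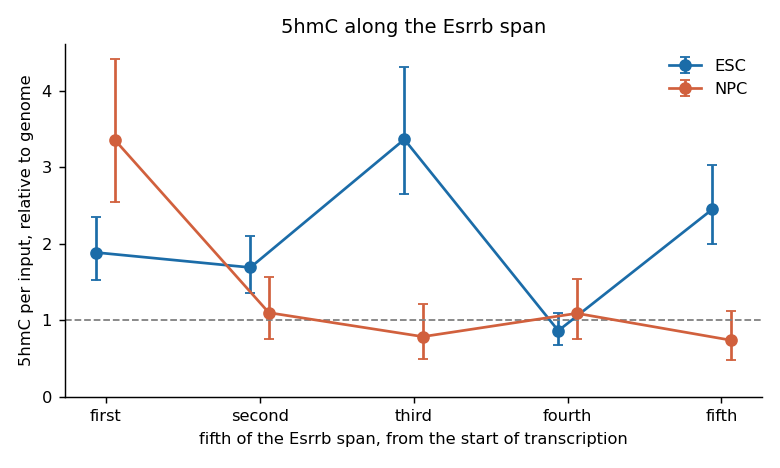
5hmC per input read relative to the genome-wide level of the same cell type (vertical axis, linear) in 5 equal segments of the Esrrb span, in the direction of transcription. Points are single libraries and bars 95% counting intervals; NPC exceeds ESC in the first segment (3.36 against 1.89), and ESC peaks in the third (3.37).

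Prdm14 encodes a PR-domain protein that represses FGF signalling and DNA methylation genes in stem cells. Its locus on chromosome 1 gave 360 5hmC and 153 input reads in ESC and 45 and 167 in NPC. The ESC level was 2.35 (1.94 to 2.86), the NPC level 0.269 (0.189 to 0.377), and the ratio 0.115 (0.0766 to 0.170), which is 0.610 of that elsewhere (0.408 to 0.904). The gene span held 126 over 38 reads in ESC and 9 over 43 in NPC, a ratio of 0.0631 (0.0251 to 0.148). The upstream flank had 162 over 60 reads in ESC, and the span differed from it 1.23-fold (0.750 to 2.02). The downstream flank was poorer, with 72 over 55, and the span was 2.53-fold above it (1.48 to 4.34). Thus the Prdm14 signal in ESC covered both the gene and the region before it. By gene order in GRCm38.p6, the protein-coding gene Ncoa2 reaches into that region. The tile with the highest ESC enrichment, chr1:13105001-13110000, lay inside the gene with 65 over 13 reads in ESC and 2 over 12 in NPC.

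Tbx3 encodes a T-box factor and Klf4 a Krüppel-like zinc finger factor, both of which link leukemia inhibitory factor signalling to the network. The Tbx3 locus on chromosome 5 gave 343 5hmC and 134 input reads in ESC and 63 and 163 in NPC. Its ESC level was 2.56 (2.09 to 3.15) and its NPC level 0.387 (0.284 to 0.520), the latter 1.46 times the genome (1.07 to 1.97). The Tbx3 ratio of 0.151 (0.104 to 0.218) included the genome-wide one. The span was poorer than its surroundings: in ESC, 39 over 37 reads in the span against 304 over 97 in the flanks, a factor of 0.336 (0.197 to 0.577). The tile at the far upstream edge, chr5:120100001-120105000, was the richest in ESC, with 71 over 9 reads against 3 over 15 in NPC.

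The Klf4 locus on chromosome 4 gave 208 5hmC and 100 input reads in ESC and 34 and 125 in NPC. Its ESC level was 2.08 (1.63 to 2.67), 1.48 times the genome, and its NPC level 0.272 (0.180 to 0.400), 1.03 times the genome. The ratio of 0.131 (0.0811 to 0.209) could not be told from the genome-wide one. The Klf4 span had 9 over 11 reads in ESC and 5 over 14 in NPC, and its start window 1 over 1 and 1 over 4, too few to read a level.

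Zfp42 encodes the zinc finger protein Rex1, a marker of naive pluripotent cells, and its locus had the lowest ESC level of the set. On chromosome 8 it gave 86 5hmC and 82 input reads in ESC and 20 and 89 in NPC. The ESC level was 1.05 (0.766 to 1.44), 0.745 of the genome (0.544 to 1.02), and it was below that of Sox2, the next in order, by a factor of 1.77 (1.21 to 2.58). With flanks of 50 kb it was 1.19 times the genome, where Klf4 was at 1.32. The NPC level was 0.225 (0.131 to 0.368) and the ratio 0.214 (0.115 to 0.391). No Zfp42 tile was enriched in either cell type, and 2 of its 10 tiles, upstream of the gene, had too little input to be kept. The input of 15.8 reads per 10 kb in ESC was the lowest of the 8 loci, where the others had 22.0 to 34.2.

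**Figure D3:**
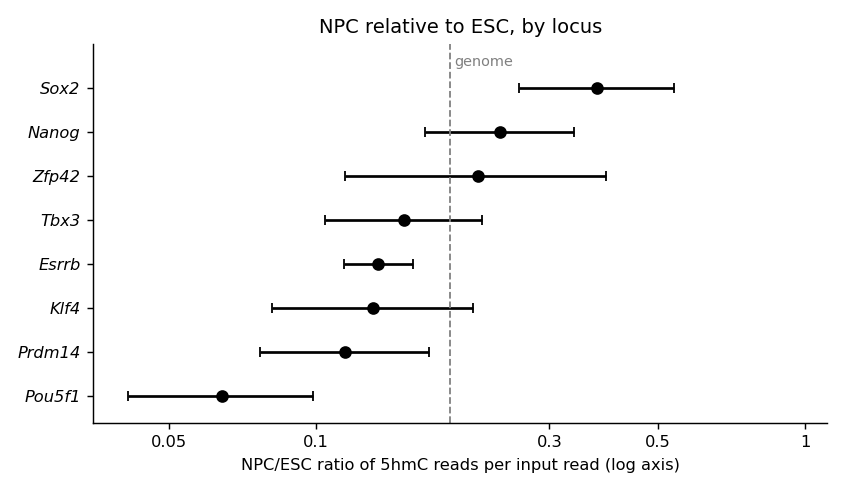
NPC/ESC ratio of 5hmC reads per input read (horizontal log axis) for the 8 loci, with 95% counting intervals; the dashed line is the genome-wide ratio of 0.188. Sox2 lies to its right, and Pou5f1, Prdm14 and Esrrb to its left.

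The order of the loci is resolved at few steps. Between neighbours in the ESC order, only Sox2 and Zfp42 differed beyond counting error, and in the NPC order only Nanog and Tbx3, by a factor of 1.51 (1.01 to 2.27). Without the kilobase before the Nanog start, the Nanog level in NPC was 0.331 and lower than Tbx3 at 0.387. In the order of the ratio, only Prdm14 and Pou5f1 did, by a factor of 1.79 (1.02 to 3.14). Over all 28 pairs the interval excluded 1 for 12 in ESC, 14 in NPC and 14 in the ratio. Of the 14 NPC pairs, 6 involve Nanog, and without that kilobase 9 pairs were apart, 1 of them with Nanog. The intervals between loci are log-normal at every count and not exact. With lower ends of 1.01 and 1.02, the steps from Nanog to Tbx3 and from Prdm14 to Pou5f1 are marginal. These intervals are not adjusted for the number of pairs.

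The next comparison asked which parts of the loci held the 5hmC. Because Esrrb supplies most span reads, the other 7 loci are given first. In ESC their flanks had 1766 5hmC reads over 718 input reads, their spans 235 over 152 and the 2 kb around their starts 17 over 48. The spans were 0.629 of the flanks (0.501 to 0.790), and the start windows 0.144 of the flanks (0.0772 to 0.257) and 0.252 of the genome (0.136 to 0.445). In NPC the start windows had 11 over 53 reads, 0.785 of the genome (0.370 to 1.52), and 0.515 of the flanks (0.240 to 1.01). The Pou5f1 start had 1 over 10 reads in ESC and 0 over 13 in NPC, the Nanog start 4 over 13 and 4 over 11, and the Prdm14 start 8 over 6 and 3 over 7. These values depend on the width of the window. With 2 kb on each side the Nanog kilobase is taken in, and the 7 loci had 100 over 88 reads in ESC, 0.807 of the genome (0.600 to 1.09), and 59 over 87 in NPC, 2.56 times the genome (1.81 to 3.61). For the 6 loci without Nanog and Esrrb, that wider window gave 0.334 in ESC (0.212 to 0.516) and 1.06 in NPC (0.614 to 1.77). Esrrb was the exception by its counts, and its start window of 1 kb each side stood 7.81-fold above the ESC genome (3.15 to 25.0) and 29.0-fold above the NPC genome (8.76 to 151). These folds rest on 5 ESC and 3 NPC input reads. They also include the kilobase whose reads lay mostly on the plus strand. Leaving out the strand-biased bin there lowered the 5 kb tile at the Esrrb start. Its fold over the ESC genome fell from 3.31 to 1.66, with an interval of 0.816 to 3.58. Over the NPC genome it fell from 5.88 to 2.13, with an interval of 0.828 to 5.11. Neither cell type then differed from its genome beyond counting error. With Esrrb included, the summed start windows were 0.965 of the genome in ESC and 2.30 in NPC, so that 1 locus sets those sums.

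**Figure D4:**
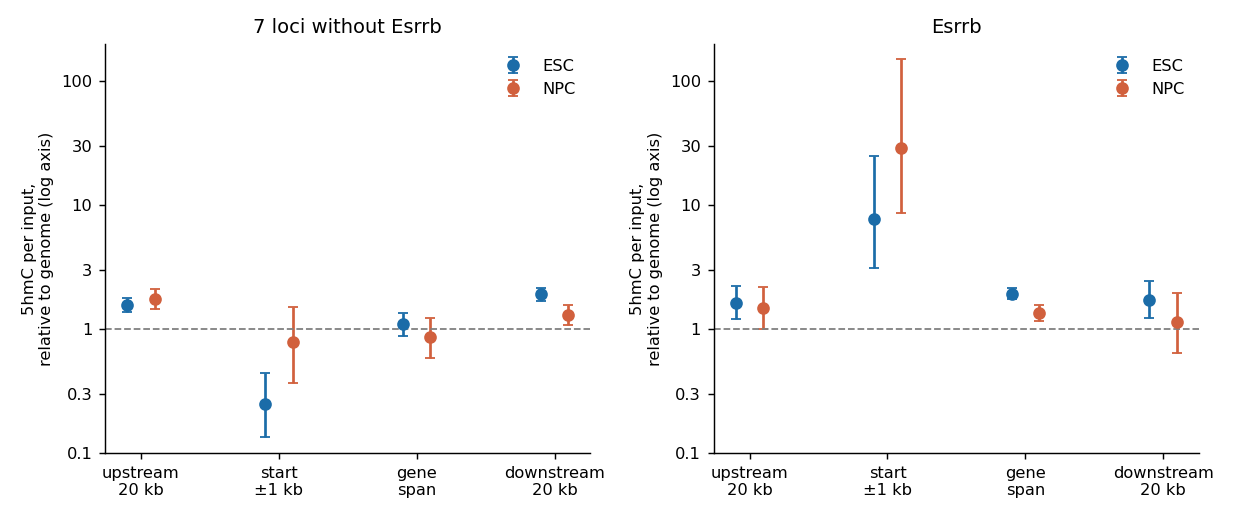
5hmC per input read relative to the genome-wide level (vertical log axis) in the upstream flank, start window, gene span and downstream flank, for 7 loci without Esrrb summed (left) and for Esrrb (right). Points are sums of counts from single libraries with 95% counting intervals; the start windows of the 7 loci are at 0.252 in ESC, and that of Esrrb is at 7.81.

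Finally, tiles of 5 kb were compared across the loci. A tile was called enriched at 10 or more 5hmC reads and at least 2-fold over its own input after scaling each library to its genome-wide reads. Of 106 tiles with usable input, 33 (31.1%) were enriched in ESC, where 10.6% of all kept tiles in the genome were. In NPC 12 (11.3%) were enriched, against 5.82% of all, and 8 (7.55%) in both, against 2.18%. Of the 37 tiles enriched in either cell type, 33 (89.2%) were at least 2-fold lower in NPC, near the 84.8% of all such tiles, and none was 2-fold higher, against 1.02%. With the genome-wide ratio as the reference, 20 (54.1%) were 2-fold or more below, against 41.9% of all such tiles, and 5 (13.5%) were 2-fold or more above, against 21.0%. The shares lower and above changed direction with some settings. At a minimum of 20 5hmC reads 88.9% were lower against 95.6% of all, and 11.1% were above the genome-wide ratio against 6.55%. With tiles of 2 kb 89.8% were lower against 92.3%, and 13.6% were above against 10.4%. With the ESC 5hmC reads thinned to the NPC depth the direction was kept: 57.1% were lower against 49.9%, and 8.57% were higher against 17.3%. Thinning also raises the genome-wide ratio, so a 2-fold difference around 1 is another comparison there. The share below the genome-wide ratio exceeded that of all such tiles in every setting tried, narrowly at the minimum of 20 reads (55.6% against 53.6%).

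By locus, the tiles enriched in ESC were 16 of 41 at Esrrb, 4 of 10 at Nanog, 4 of 11 at Tbx3, 3 of 9 at Pou5f1, 3 of 10 at Prdm14, 2 of 8 at Sox2, 1 of 9 at Klf4 and 0 of 8 at Zfp42. In NPC the enriched tiles were 6 at Esrrb, 4 at Sox2, 1 at Nanog and 1 at Tbx3, and 0 at the other 4 loci. The NPC tile at Nanog (chr6:122655001-122660000, 40 over 17 reads) is the one with the strand-biased bin. Of the 5 tiles above the genome-wide ratio, 2 were at Sox2 and 1 each at Nanog, Tbx3 and Esrrb. The lowest ratios among the enriched tiles were at Esrrb (chr12:87785001-87790000, 53 over 8 reads in ESC and 3 over 23 in NPC) and at the upstream Tbx3 tile named above. Across the 106 tiles, the ESC and NPC enrichments were weakly related (Pearson's r of log2 values 0.18, Spearman's rho 0.19), and over all 476819 kept tiles r was 0.26. The tiles of a cell type share their libraries and their depth, so these are descriptions.

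**Figure D5:**
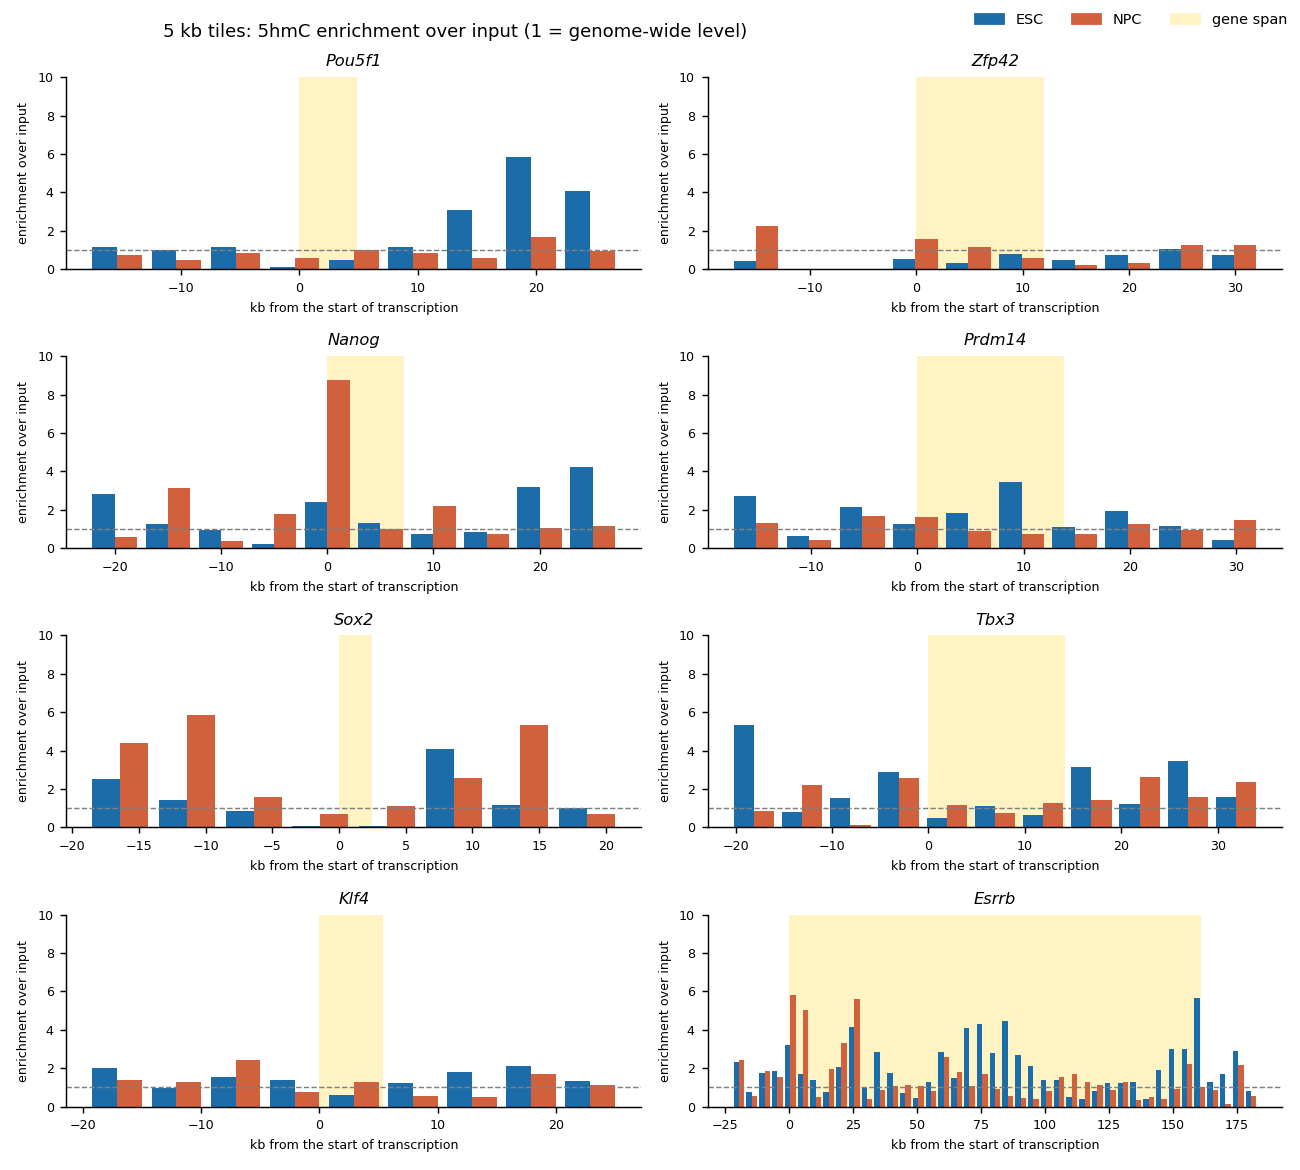
5hmC enrichment over input in 5 kb tiles (vertical axis, linear from 0, where 1 is the genome-wide level) against distance from the start of transcription in kb, for ESC (blue) and NPC (red), 1 library each. Shading marks the gene span and tiles with too little input are left blank; the Pou5f1 signal lies downstream of the gene, and the tallest NPC bar is the Nanog start tile, 8.90-fold over input before the pseudocount.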

How the data were processed

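The 4 deposited files give, per the labels' protocols and their own columns, read positions of a 5hmC and an input library of ESC and of NPC, extended to 350 bp, with a whole-number column read here as the count of reads at that position and strand. The authors aligned to mm9 with Bowtie 0.12.7, per the submitters' processing notes; the counts are not scaled as far as their values show, and for mapping filters nothing is given in the sources used here. Distinct reads (1 per position and strand) were placed by midpoint, with scipy 1.17.1 and pandas 2.3.3 under Python 3.11.15. Gene spans were given on mm9 as part of the choice of genes; no mm9 annotation was used, and their lengths differ by at most 488 bp from RefSeq GRCm38.p6. Levels are 5hmC reads per input read, with Clopper-Pearson intervals, and exact conditional odds ratio intervals for ratios (a log-normal one where a count passes 2000). Intervals between 2 loci were log-normal at every count. Tiles of 5 kb needed 5 summed input reads and at most 5 times the median, with a pseudocount of 0.5. All 8 genes were named, together with the tiles of highest enrichment in each locus and the 3 lowest and 3 highest ratios. The genes, lists and rules were chosen with earlier results of these data known. Calls and intervals were tested on simulated counts. A planned list of 16 further pluripotency genes was not analysed here, since it needs an mm9 annotation. Alternatives tried were other flanks, inputs, strands, tile sizes and thresholds, subtracted background, and leaving out loci or strand-biased bins.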

Additional observations from a re-analysis of the deposited data

How the results depend on the processing

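Of the alternative values, 333 stayed within the counting interval of the reported one (counts of tiles within 1.5 times), 68 moved and 8 crossed the genome-wide level from a value whose interval excluded it. Some of the 333 could not move. Leaving out tiles of extreme input removed nothing from any locus, and Sox2, Klf4, Zfp42, Prdm14 and Tbx3 had no strand-biased bin to leave out. In all, 22 of 230 levels relative to the genome crossed the genome-wide level. The NPC/ESC ratio of the 8 loci summed lay between 0.0965 and 0.162 in all settings tried. Each locus stayed below 1, a bound that depends on the library sizes. Leaving out strand-biased bins and the bin near Nanog was decided after seeing the data, as was giving parts without Esrrb or Nanog and the 2 kb start window without them. Depth is the limit: a locus had from 20 (Zfp42) to 297 (Esrrb) NPC 5hmC reads, and there was 1 library per group. No paired analysis was possible because each group has 1 library.

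With flanks of 10 kb the ESC level relative to the genome was 0.954 at Pou5f1, 0.986 at Sox2 and 1.65 over the 8 loci, and the NPC/ESC ratio was 0.140 at Pou5f1 and 0.531 at Nanog; with 50 kb it was 0.246 at Sox2. With the span alone the ratio was 0.750 at Pou5f1, 0.160 at Nanog, 0.437 at Klf4, 0.0631 at Prdm14, 0.223 at Tbx3 and 0.133 over the 8 loci. The span's level relative to the genome was then 0.158 at Pou5f1, 0.581 at Klf4 and 0.749 at Tbx3 in ESC, and 0.890 at Tbx3 and 1.25 over the 8 loci in NPC. Summed inputs gave ratios of 0.148 at Nanog and 0.132 over the 8 loci, and an ESC level of 1.87. Plus strand reads gave ratios of 0.158 at Nanog and 0.220 at Tbx3 and an NPC level of 1.24 over the 8 loci; minus strand reads gave 1.52. Zfp42 in ESC went from 0.745 to 1.19 of the genome with flanks of 50 kb.

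The background of 0.142 reads per input read, an NPC level, was subtracted from both cell types. The ratio was then 0.0201 at Pou5f1, 0.0673 at Klf4, 0.0917 at Zfp42 and 0.0578 at Prdm14. It was 0.101 at Tbx3, 0.0856 at Esrrb and 0.0965 over the 8 loci, where the genome gave 0.0971. The lower summed ratio of the loci was not seen under that subtraction. Without Esrrb the ESC level over the loci was 1.63, the start windows were 0.252 in ESC and 0.785 in NPC, and the spans 1.10 and 0.862. Start windows of 2 kb on each side gave 1.20 in ESC and 3.10 in NPC over the 8 loci, and 0.334 and 1.06 without Esrrb and Nanog. The median NPC level was 1.19. Without the Nanog bin the Nanog ratio was 0.156.

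Counts of tiles moved with the rules. In parentheses are shares over the loci against shares over the genome. For tiles lower, higher, below or above, the base is tiles enriched in either cell type. A minimum of 20 reads gave 7 tiles enriched in NPC (6.60% against 1.04%) and 4 in both (3.77% against 0.551%). No minimum gave 21 in NPC (19.8% against 14.0%) and 9 above the genome-wide ratio (20.9% against 43.3%). A pseudocount of 5 left 8 below that ratio (22.2% against 14.6%). A fold of 3 gave 18 enriched in ESC (17.0% against 4.05%) and 2 in both (1.89% against 0.509%). It gave 19 lower (79.2% against 66.7%), 11 below (45.8% against 30.1%) and 3 above (12.5% against 20.4%). Tiles of 2 kb gave 84 enriched in ESC (32.7% against 12.0%), 79 lower (89.8% against 92.3%) and 1 higher (1.14% against 1.06%). They gave 54 below (61.4% against 56.2%) and 12 above (13.6% against 10.4%). Tiles of 10 kb gave 19 enriched in ESC (35.2% against 9.04%), 20 lower (95.2% against 81.6%) and 10 below (47.6% against 33.7%). At equal 5hmC depth, which also raises the genome-wide ratio, 20 were lower (57.1% against 49.9%) and 3 higher (8.57% against 17.3%).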
